A study of Danio rerio with 12 samples.

Results

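Zebrafish embryos mutant for ddx3xb were compared with control embryos at 4 hours post fertilization (hpf), gene by gene, in polyadenylated RNA. Levels are in RPKM, read counts corrected for the length of the gene and the size of the library, and 14932 of the 33737 Ensembl genes in the deposited tables were kept because their RPKM was at least 1 in mutants, in controls or in both. The labels give 2 mutant and 2 control samples at 4 hpf, 4 of the 12 samples of the series. The mutant embryos carry the genotype ddx3xb-/- and the controls ddx3xb+/+, which is also called wild type. Mutants and controls of 2 and 6 hpf, again with 2 samples each, were used to say what each RNA did before and after. No label gives the molecular lesion, the genotype of the mothers or the number of embryos in a sample, and no treatment is named for either genotype.

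DDX3 proteins are DEAD-box RNA helicases that unwind structured RNA and act in the initiation of translation. The fish embryo begins life on RNA that the mother loaded into the egg. Its own genome becomes active at about the mid-blastula stage, between the 2 hpf and the 4 hpf samples, and the first embryonic RNAs include those of patterning factors and of the first differentiated layers. Maternal RNAs are cleared while embryonic RNAs accumulate, and removal of the poly(A) tail is a main route of that clearance.

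The authors deposited 1 RPKM value per gene for each genotype and time, so each value below is a group value from 2 samples without a standard deviation. Differences are given as log2(RPKM + 1) in mutants minus controls, and a gene is counted as lower or higher when that difference reaches 1 in size. The added 1 makes the differences of weakly expressed genes look smaller. No p-value can be given, and whether the 2 samples of mutants overlap those of controls cannot be seen. Sequencing depths were recovered from the low values only up to a common whole factor, so their ratios are firmer than their sizes. They came to 39.6 and 38.8 M reads for the mutant libraries at 4 hpf and 53.8 and 50.3 M for the controls. If that factor is 1, a gene of 1 kb with an RPKM of 1 would have about 38.8 to 53.8 reads per library. These were whole embryos, so fewer cells of a type cannot be told apart from less RNA per cell. Selection on poly(A) likewise cannot tell less RNA from RNA with a shorter tail. Samples were matched by hours after fertilization. A difference in the developmental stage reached by mutants and controls therefore cannot be told apart from a difference at the same stage.

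The targeted gene was checked first, and the mutant value was far below the control value. ddx3xb stood at 18.8 RPKM in mutants and 318 RPKM in controls, a log2 difference of -4.01, which left 5.93% of the control level. At 2 hpf it had been at 0.697 RPKM in mutants and 325 RPKM in controls. By 6 hpf it was at 48.8 RPKM in mutants and 194 RPKM in controls, so the mutant value rose over time. Its close relative ddx3xa stood at 108 RPKM in mutants and 117 RPKM in controls (-0.11). At 6 hpf ddx3xa was at 118 RPKM in mutants and 32.1 RPKM in controls (1.84). Of 44 DEAD-box and DEAH-box helicase genes matched by symbol, ddx3xb was the single one lower by 1 log2, and 0 were higher. DDX5, a helicase of transcription and splicing complexes, was at 333 RPKM in mutants and 582 RPKM in controls (-0.80). DDX1 was at 10.1 RPKM in mutants and 5.22 RPKM in controls (0.84).

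Most genes differed little between the genotypes, and those that differed were more often lower. In mutants 1076 of the 14932 kept genes were lower, which is 7.21%, and 647 were higher, which is 4.33%. The remaining 88.5% lay within 1 log2, and the median difference over all kept genes was 0.04. By at least 2 log2 there were 174 lower and 49 higher genes. The shares of 7.21% and 4.33% are the overall background for the counts in gene lists below. For list members under RPKM 1 at 2 hpf in both genotypes the closer background is 39% lower, the share among all such kept genes. That share depends on level. At a mean of 1 to 3 RPKM over both genotypes at 4 hpf it was 35.3%, and at 3 to 10 RPKM 67%. At 10 to 30 RPKM it was 64.6% and at 30 to 100 RPKM 76.7%, so 39% is too low a background for stronger members. Among kept genes detected and within 1 log2 at 2 hpf the background is 1.55%. A list rich in the first kind can thus pass 7.21% without differing from other genes of that kind. List counts are given out of matched genes, some of which were not kept, whereas these shares are out of kept genes. The rule for keeping genes leans on the higher of the pair of values: 1166 genes passed through the control value alone and 805 through the mutant value alone. Among the 12961 genes with an RPKM of at least 1 in both genotypes, 563 were lower and 478 higher.

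Most of the lower genes were under RPKM 1 at 2 hpf in both genotypes, or were already lower in mutants then. Of the 1076 lower genes, 570 (53%) had an RPKM under 1 in both genotypes at 2 hpf, against 1462 (9.79%) of all kept genes. With an RPKM of at least 1 at 4 hpf in both genotypes they were 221 of 563 lower genes, against 538 of 12961 genes. A further 311 lower genes (28.9%) were already lower at 2 hpf, where 3.6% of all kept genes were lower. Another 190 (17.7%) had been within 1 log2 at 2 hpf and 5 had been higher. The 647 higher genes had a different past: 369 of them (57%) were already higher in mutants at 2 hpf, where 4.59% of all kept genes were higher, 258 (39.9%) had been within 1 log2 and 1 had been lower. Only 19 of the higher genes (2.94%) were under RPKM 1 in both genotypes at 2 hpf. The comparisons at 2 and at 4 hpf share no library.

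Read the other way, the state at 2 hpf sorted the genes at 4 hpf. Of 1462 genes with an RPKM under 1 at 2 hpf in both genotypes, 570 were lower in mutants at 4 hpf (39%) and 19 higher (1.3%). Of these 1462, 742 were kept through the control value alone, which puts them below control, and 182 through the mutant value alone. The 538 with at least 1 RPKM at 4 hpf in both genotypes gave 221 lower (41.1%) and 4 higher (0.743%), with a median of -0.83. Genes detected at 2 hpf and within 1 log2 there, 12246 in number, gave 190 lower (1.55%) and 258 higher (2.11%), with a median of 0.08. The 11540 of these with at least 1 RPKM in both genotypes gave 158 lower (1.37%) and 218 higher (1.89%). Genes already lower at 2 hpf had a median of -1.10 at 4 hpf, and those already higher a median of 1.05. At 6 hpf the background is itself shifted: of all 14932 kept genes 20.4% were higher in mutants, 5.49% lower and 74.1% within 1 log2. Of the 1076 genes lower at 4 hpf, 726 (67.5%) were within 1 log2 at 6 hpf, 297 (27.6%) lower and 53 (4.93%) higher. Of the 647 higher genes, 317 (49%) were still higher at 6 hpf, 322 (49.8%) were within 1 log2 and 8 (1.24%) were lower.

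**Figure D1:**
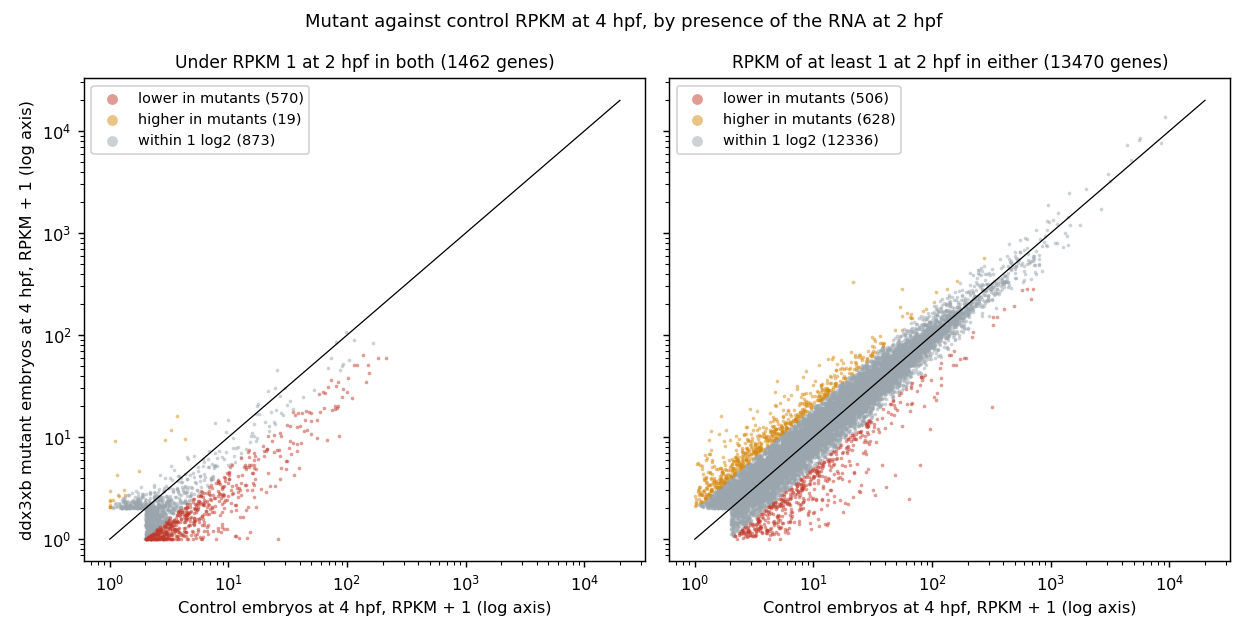
RPKM + 1 at 4 hpf on log axes, ddx3xb mutants on the vertical and controls on the horizontal axis, 1 point per kept gene and the line of equality in black. Genes under RPKM 1 at 2 hpf in both genotypes (left, 1462 genes) lie mostly below the line, with 570 lower and 19 higher by at least 1 log2, while the others (right) spread to both sides.

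The contrast between genes under RPKM 1 at 2 hpf in both genotypes and the others held at every level of expression examined. Among genes with a mean of 3 to 10 RPKM over both genotypes, 218 were under RPKM 1 at 2 hpf. Of these 146 were lower in mutants (67%), against 189 of the other 3558 (5.31%). Among genes of 10 to 30 RPKM the counts were 51 of 79 (64.6%) against 90 of 3488 (2.58%). Among genes of 30 to 100 RPKM they were 33 of 43 (76.7%) against 41 of 2702 (1.52%). For scale, 90% of all genes of 30 to 100 RPKM lay between -0.65 and 0.78, and 90% of genes of 1 to 3 RPKM between -1.49 and 1.02. The spread between replicate libraries was not recovered, so these ranges hold genotype differences and replicate error together.

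**Figure D2:**
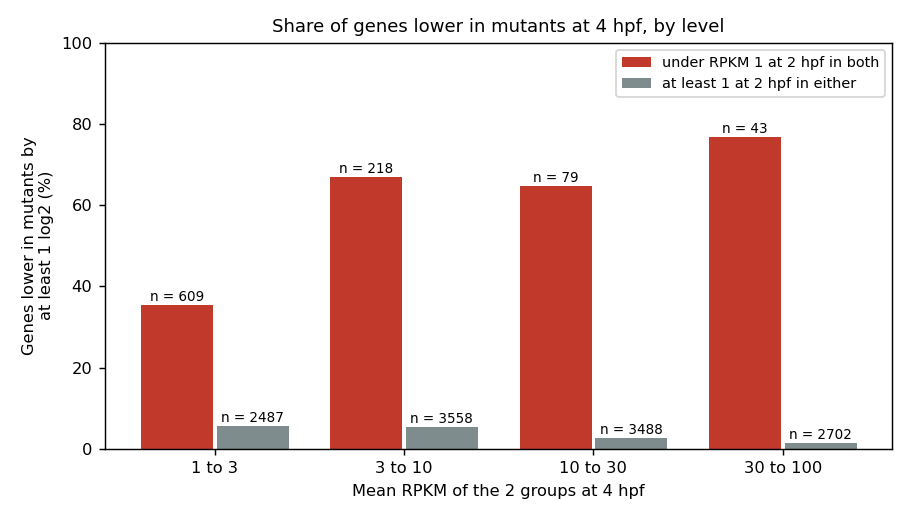
Percentage of genes lower in ddx3xb mutants by at least 1 log2 at 4 hpf, by mean RPKM of both genotypes; red bars are genes under RPKM 1 at 2 hpf in both genotypes, grey bars all other kept genes, n above each bar. The red bars stand at 35.3% to 76.7% and the grey bars at 1.52% to 5.71%.

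To follow RNA that rose after 2 hpf without using any 4 hpf value, a class was formed from the other times alone: RPKM under 1 at 2 hpf in both genotypes and at least 5 in controls at 6 hpf. It is called newly made below, although selection on poly(A) cannot tell new RNA from RNA that gained a longer tail. The class held 1022 genes. At 4 hpf the mutant value was below the control value in 890 of them, above it in 120 and equal in 12, with a median log2 difference of -0.55 over all 1022. An RPKM of at least 1 had been reached by 310 of these genes in mutants and by 577 in controls, and one of at least 10 by 60 in mutants and 137 in controls. In all 323 were lower by at least 1 log2 and 1 was higher. The higher one, ENSDARG00000080268, has no symbol and was at 8.53 RPKM in mutants and 3.32 RPKM in controls. Among the 303 class members with an RPKM of at least 1 in both genotypes, 286 were below the control value and 172 were lower by 1 log2. The class leans on the control value at 6 hpf. With at least 5 RPKM at 6 hpf asked of mutants instead, 269 genes were lower and 5 higher. The median over kept genes was then -1.09, against -1.10 for the class from controls.

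Maternal RNAs leaned slightly the other way. A falling class was formed of genes with at least 5 RPKM in controls at 2 hpf and at least 4 times less at 6 hpf, and all 2957 of them were kept at 4 hpf. The mutant value was above the control value in 2012 and below it in 945, with a median of 0.20. By at least 1 log2 136 were higher (4.6%) and 69 lower (2.33%), against 4.33% and 7.21% of all kept genes. The share higher was thus near that of all kept genes. When the class was taken from the mutant tables instead, the median was 0.57, with 96 higher and 0 lower. The size of that class was not recorded.

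The difference at 4 hpf followed the change of the RNA in controls between 2 and 6 hpf step by step. That interval spans 4 hpf, so it is not the course after 4 hpf alone. In the 152 kept genes whose control value dropped by more than 4 log2 between 2 and 6 hpf, the median difference was 0.45. It was 0.21, 0.09 and 0.05 in the next bins, in which the control value changed by -4 to -2, -2 to -1 and -1 to 1. Where controls gained 1 to 2 log2 the median was -0.19, and with a gain of 2 to 4 it was -0.50. In the 345 genes that gained over 4 log2 it was -1.12, with 198 lower (57.4%) and 2 higher. The medians of kept genes lean on the filter where controls gained. Over all 485 genes of the last bin, kept or not, the median was -0.79, and over the 244 with at least 1 RPKM at 4 hpf in both genotypes it was -1.15. With a gain of 2 to 4 the median was -0.29 both over all 1511 genes and over the 733 with at least 1 RPKM in both.

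**Figure D3:**
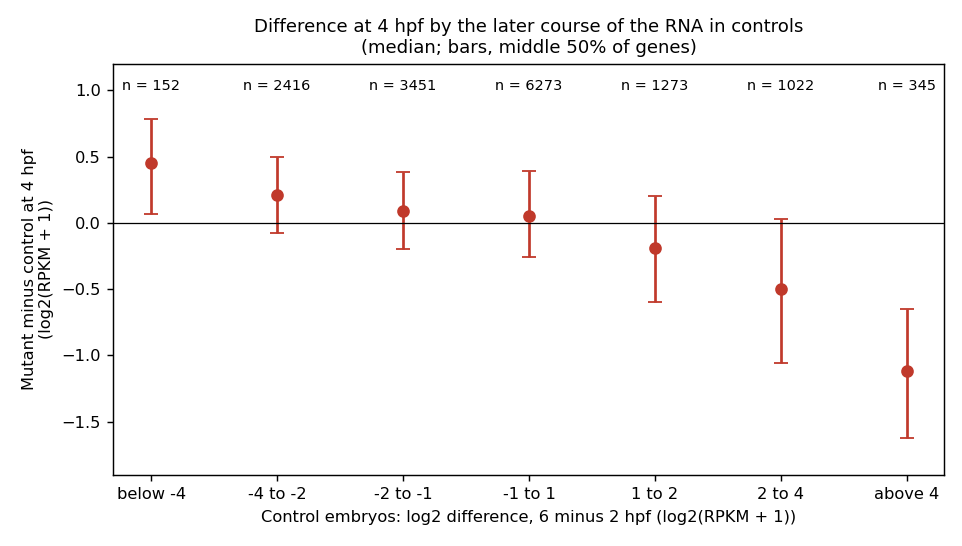
Median mutant minus control difference at 4 hpf in log2(RPKM + 1), for kept genes, with bars spanning the middle 50% of genes, against the change of the same genes in controls between 2 and 6 hpf. The medians run from 0.45 for RNAs that disappeared to -1.12 for RNAs that accumulated most, which is -0.79 when genes that were not kept are counted too.

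Early zygotic genes, the first to be transcribed by the embryo, showed the pattern gene by gene. This list and those below were chosen with earlier results of these data known, so they are no independent support for it. Of 44 symbols in the list 33 were matched, 22 of which were lower in mutants and 0 higher, with a median of -1.49 over all 33 (-1.56 over the 31 kept). All 31 kept members were below the control value, and 30 of them had an RPKM of at least 1 in both genotypes. polr3gla, which encodes an RNA polymerase III subunit, was at 9.31 RPKM in mutants and 85.3 RPKM in controls (-3.06). vgll4l, a transcription cofactor gene, was at 23.3 RPKM in mutants and 110 RPKM in controls (-2.20). inka1a, which encodes an inhibitor of the kinase Pak4, was at 58.9 RPKM in mutants and 213 RPKM in controls (-1.84). These RNAs were thus present in mutants at 4 hpf, at 10.9% of the control level for polr3gla and at 27.7% for inka1a.

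Other strongly expressed early genes were lower as well. akap12b, a scaffold gene for protein kinase A, was at 41.5 RPKM in mutants and 153 RPKM in controls. asb11, which encodes a substrate adaptor of ubiquitin ligases, was at 17.6 RPKM in mutants and 73.8 RPKM in controls. mych, a Myc family gene, was at 57.6 RPKM in mutants and 171 RPKM in controls. The smallest differences in the list were slight. klf17, a Krüppel-like factor gene of the enveloping layer, was at 107 RPKM in mutants and 119 RPKM in controls (-0.15). irx7, an Iroquois homeobox gene, was at 46.3 RPKM in mutants and 68.5 RPKM in controls (-0.56). So the deficit ranged from slight to about 3 log2 within 1 list of early genes.

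Some of the lowest early genes were at or above the control value by 6 hpf. tbx16, a T-box factor gene of mesoderm, was at 8.91 RPKM in mutants and 55.1 RPKM in controls at 4 hpf, and at 179 RPKM in mutants and 132 RPKM in controls at 6 hpf. bmp7a, which encodes a BMP ligand, was at 0.643 RPKM in mutants and 11.6 RPKM in controls at 4 hpf, and at 48.4 RPKM in mutants and 42.9 RPKM in controls at 6 hpf. stm, known in zebrafish from ear stones, was at 3.25 RPKM in mutants and 35.1 RPKM in controls at 4 hpf, and at 441 RPKM in mutants and 413 RPKM in controls at 6 hpf. krt4 stayed lower in value at 6 hpf, with 860 RPKM in mutants and 1465 RPKM in controls (-0.77). In controls vgll4l and inka1a were lower at 6 than at 4 hpf, and at 6 hpf their mutant values were the higher ones: vgll4l was at 43.6 RPKM in mutants and 14 RPKM in controls, and inka1a at 64.5 RPKM in mutants and 13.2 RPKM in controls.

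**Figure D4:**
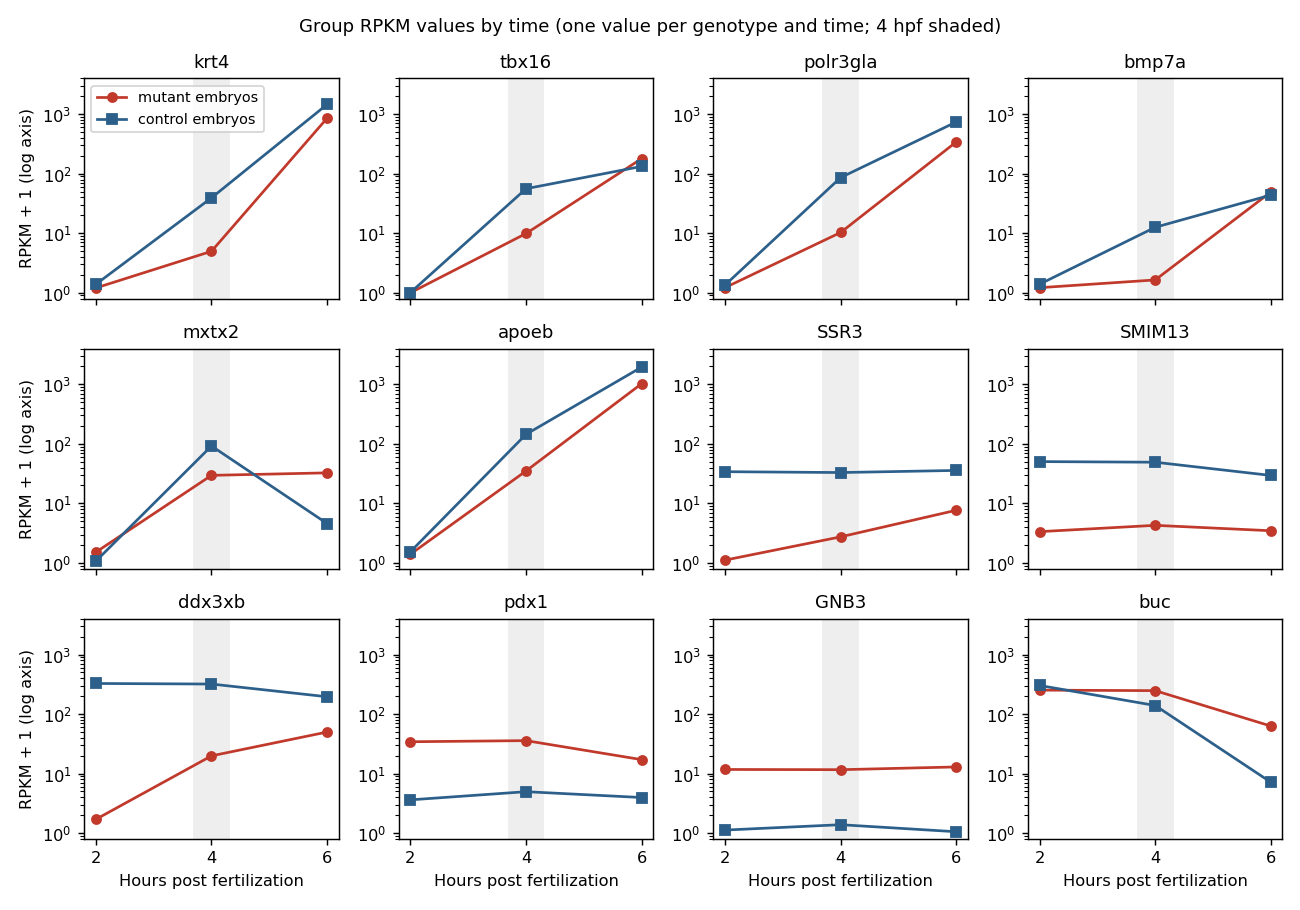
RPKM + 1 (log axis) at 2, 4 and 6 hpf in ddx3xb mutant (red circles) and control embryos (blue squares), 1 group value per point, 4 hpf shaded. krt4, tbx16, polr3gla, bmp7a, mxtx2 and apoeb start near 0 in both genotypes and separate at 4 hpf, whereas SSR3, SMIM13, ddx3xb, pdx1 and GNB3 are apart from 2 hpf on; buc, a maternal RNA, separates after 2 hpf.

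The enveloping layer, the outer epithelium of the blastula and its first differentiated tissue, was lower in 10 of 22 matched genes and higher in 0 (median over all 22, -0.76). Keratins were among its lowest genes. krt4 was at 3.98 RPKM in mutants and 38.4 RPKM in controls (-2.99). krt8 was at 3.84 RPKM in mutants and 27.7 RPKM in controls (-2.57). krt18a.1 was at 19.4 RPKM in mutants and 78.0 RPKM in controls (-1.96). Junction genes were lower too: the claudin gene cldne was at 13.8 RPKM in mutants and 43.1 RPKM in controls (-1.57), and cldnb at 2.38 RPKM in mutants and 13.1 RPKM in controls (-2.06). grhl3, a transcription factor gene of this epithelium, was at 44.4 RPKM in mutants and 85.5 RPKM in controls (-0.93), short of the threshold. An RPKM of at least 1 was reached in both genotypes by 12 of the 22 genes and in controls alone by 2, and 3 were listed at 0 in mutants. The 14 kept genes ranged from stm at -3.09 to KLF6 at 0.26, the single kept member above the control value, at 10.9 RPKM in mutants and 8.96 RPKM in controls.

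The yolk syncytial layer, which forms between yolk and blastoderm and signals to it, was lower in 5 of 16 matched genes and higher in 0 (median over all 16, -0.49). Of its 9 kept genes 5 passed through the control value alone and 4 had at least 1 RPKM in both genotypes. Its homeobox gene mxtx1 was at 0.911 RPKM in mutants and 13.2 RPKM in controls (-2.89). The related mxtx2 was at 28.6 RPKM in mutants and 91.2 RPKM in controls (-1.64). The apolipoprotein gene apoeb was at 34.1 RPKM in mutants and 144 RPKM in controls (-2.04). The genes chosen to define the layer were mxtx1, mxtx2 and SLC26A1. Of these mxtx1 was under 1 RPKM in mutants only. SLC26A1 was under 1 RPKM in both genotypes, at 0.0144 RPKM in mutants and 0.423 RPKM in controls. ctsll, which encodes a cathepsin L-like protease, was at 0.175 RPKM in mutants and 7.59 RPKM in controls (-2.87). Later genes of the layer such as apoa1a were not yet expressed, at 0.249 RPKM in mutants and 0.319 RPKM in controls.

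**Figure D5:**
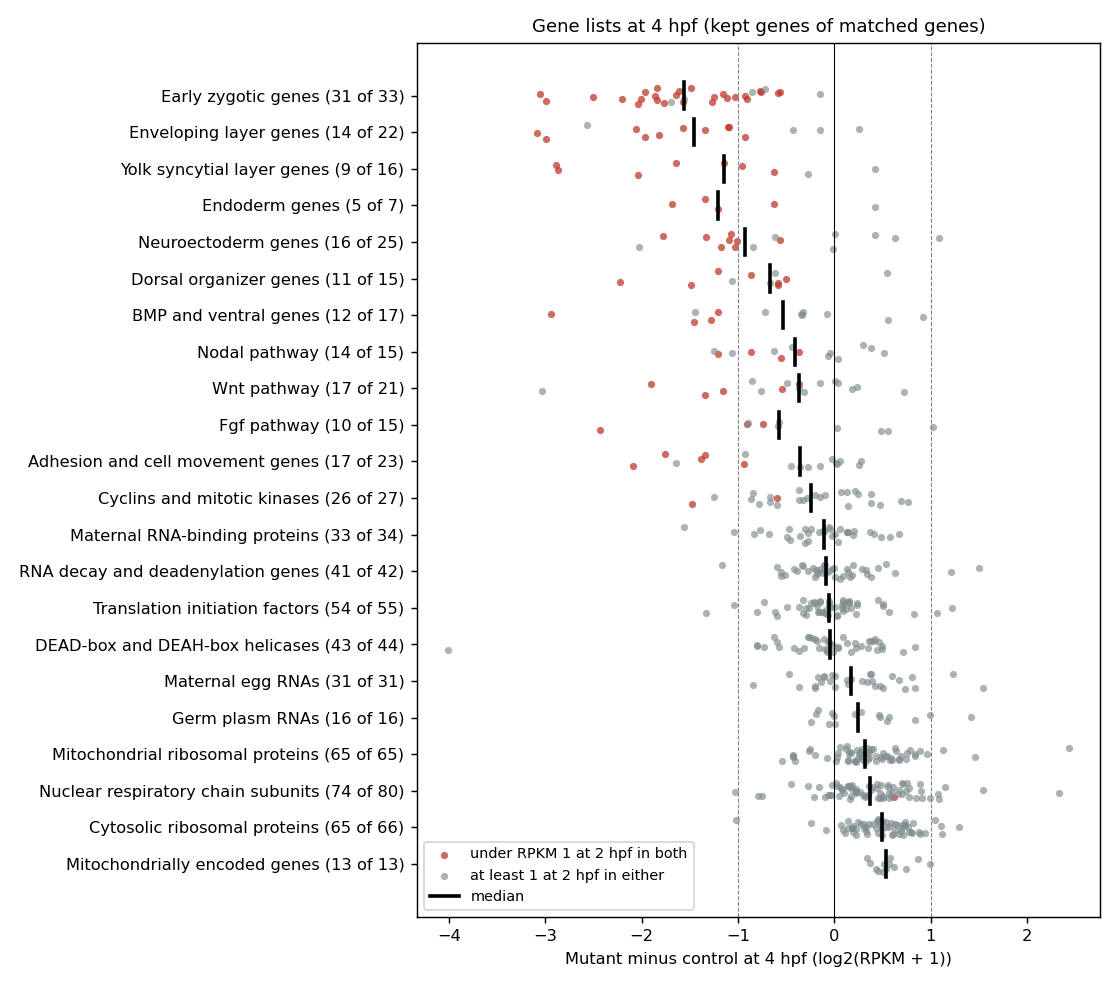
Mutant minus control difference at 4 hpf in log2(RPKM + 1) for kept members of 22 gene lists, 1 point per gene, with the median as a black bar and dashed lines at -1 and 1. Red points (under RPKM 1 at 2 hpf in both genotypes) lie to the left in the embryonic lists at the top, while maternal, ribosomal and mitochondrial lists at the bottom have medians from 0.17 to 0.54.

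In the Nodal pathway, which induces mesoderm and endoderm, 3 of 15 matched genes were lower and 0 higher (median over all 15, -0.37). The ligand gene ndr1 was at 6.05 RPKM in mutants and 11.9 RPKM in controls (-0.87). Its maternal partner ligand gene gdf3 was at 273 RPKM in mutants and 282 RPKM in controls (-0.04). The receptor gene ACVR1B was at 76.3 RPKM in mutants and 80.3 RPKM in controls (-0.07). SMAD4, the shared transducer, was at 7.07 RPKM in mutants and 18.2 RPKM in controls (-1.25), and was already at 7.17 RPKM in mutants and 18 RPKM in controls at 2 hpf. Among targets of the pathway, mixl1 was lower, at 1.94 RPKM in mutants and 5.81 RPKM in controls (-1.21). So was GSC, the organizer gene goosecoid, at 6.96 RPKM in mutants and 15.6 RPKM in controls (-1.06). The feedback inhibitor gene lft1 fell short of the threshold, at 4.24 RPKM in mutants and 6.70 RPKM in controls (-0.55).

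BMP and ventral genes gave 5 lower and 0 higher of 17 matched (median over all 17, -0.32). Beside bmp7a, the ligand gene BMP2 was at 16.3 RPKM in mutants and 41.1 RPKM in controls (-1.28). ID1, a direct BMP target, was at 35.0 RPKM in mutants and 97.7 RPKM in controls (-1.45). GATA2, a ventral and blood-lineage factor gene, was at 6.6 RPKM in mutants and 20.0 RPKM in controls (-1.46). The maternal transducer gene SMAD5 was at 125 RPKM in mutants and 159 RPKM in controls (-0.35), and the receptor gene BMPR1A at 17.8 RPKM in mutants and 22.5 RPKM in controls (-0.32). On the dorsal side, chrd, the BMP antagonist chordin, was at 4.28 RPKM in mutants and 13.8 RPKM in controls (-1.49), so ligands and antagonist were both lower.

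The dorsal organizer list as a whole had 4 lower and 0 higher of 15 matched (median over all 15, -0.58). noto, a homeobox gene of the future notochord, was at 7.77 RPKM in mutants and 40.0 RPKM in controls (-2.22). dharma, one of the first organizer genes, was at 7.06 RPKM in mutants and 11.1 RPKM in controls (-0.58). Of the Wnt pathway 4 of 21 matched genes were lower and 0 higher (median over all 21, -0.31). The non-canonical ligand gene wnt11f2 was at 27.0 RPKM in mutants and 61.4 RPKM in controls (-1.16), the target gene SP5 at 0.820 RPKM in mutants and 3.61 RPKM in controls (-1.34) and dact2, a modulator of the pathway, at 2.19 RPKM in mutants and 10.9 RPKM in controls (-1.9). The secreted antagonist gene SFRP1 was at 1.94 RPKM in mutants and 23.0 RPKM in controls (-3.03) but was already at 0.0953 RPKM in mutants and 8.46 RPKM in controls at 2 hpf, and this symbol stands on 2 IDs. The beta-catenin gene CTNNB1 was at 155 RPKM in mutants and 201 RPKM in controls (-0.37).

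In the Fgf pathway 1 of 15 matched genes was lower and 1 higher (median over all 15, -0.09). The receptor gene fgfr4 was at 4.85 RPKM in mutants and 30.5 RPKM in controls (-2.43), whereas FGFR1, which is supplied maternally, was at 30.2 RPKM in mutants and 21.3 RPKM in controls (0.48). etv5a, an Ets factor gene of the pathway, was at 111 RPKM in mutants and 54.4 RPKM in controls (1.02), having been at 137 RPKM in mutants and 127 RPKM in controls at 2 hpf. The feedback phosphatase gene DUSP6 was at 17.8 RPKM in mutants and 34.2 RPKM in controls (-0.91). Among Notch and hairy-related genes 3 of 17 were lower and 0 higher (median over all 17, -0.08), and 5 of the 9 kept were below the control value. The hairy-related repressor gene her5 was at 49.7 RPKM in mutants and 148 RPKM in controls (-1.56), and her11 at 16.2 RPKM in mutants and 37.6 RPKM in controls (-1.17). HES6 was just past the threshold, with 0.936 RPKM in mutants and 2.88 RPKM in controls.

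The apelin pathway, which guides cells in gastrulation, was lower in 3 of 4 matched genes and higher in 0. The 3 lower genes were the 3 kept ones, and all were under RPKM 1 at 2 hpf in both genotypes. Of all genes of that state, 64.6% to 76.7% were lower at means from 3 to 100 RPKM. The ligand gene apela was at 6.41 RPKM in mutants and 25.5 RPKM in controls (-1.84). Its receptor genes were lower as well, with aplnra at 1.38 RPKM in mutants and 7.31 RPKM in controls (-1.80) and aplnrb at 50.5 RPKM in mutants and 121 RPKM in controls (-1.25). Of the adhesion and cell movement genes 5 of 23 matched were lower and 0 higher (median over all 23, -0.27). HAS2, which makes hyaluronan, was at 5.47 RPKM in mutants and 26.5 RPKM in controls (-2.09). The chemokine receptor gene CXCR4 was at 20.7 RPKM in mutants and 66.5 RPKM in controls (-1.64), and its ligand gene CXCL12 at 1.04 RPKM in mutants and 4.29 RPKM in controls (-1.38). The maternally supplied integrin gene ITGAV was at 19.8 RPKM in mutants and 19.3 RPKM in controls (0.03).

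Transcription factor genes of the germ layers came next. Endoderm genes had 3 lower and 0 higher of 7 matched (median over all 7, -0.63). Among them foxa3 was at 1.80 RPKM in mutants and 8.02 RPKM in controls (-1.68). GATA5 was at 0.357 RPKM in mutants and 2.44 RPKM in controls (-1.34). Neuroectoderm genes had 8 lower and 1 higher of 25 matched (median over all 25, -0.14). Of the 9 with at least 1 RPKM in both genotypes 3 were lower. ZIC2, a zinc finger factor gene, was at 25.8 RPKM in mutants and 109 RPKM in controls (-2.03). The SoxB1 pair sox19a and sox19b went opposite ways. sox19a, made by the embryo, was at 35.1 RPKM in mutants and 72.9 RPKM in controls (-1.03), whereas sox19b, supplied by the mother, was at 341 RPKM in mutants and 160 RPKM in controls (1.09). In the mesoderm list 2 of 14 were lower and 1 higher (median over all 14, -0.04). The higher member, the bHLH gene msgn1, was at 4.66 RPKM in mutants and 0.762 RPKM in controls (1.68), after 3.35 RPKM in mutants and 0.288 RPKM in controls at 2 hpf.

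The 14 embryonic lists share members and were chosen with earlier results of these data known, so their counts are no independent support. Over them 148 different genes were kept, and 64 of these genes were lower and 3 higher. Their state at 2 hpf divided them. Of the 74 with an RPKM under 1 at 2 hpf in both genotypes 55 were lower, but 21 of the 74 were kept through the control value alone. The 52 with at least 1 RPKM at 4 hpf in both genotypes gave 40 lower and 0 higher, with a median of -1.52. Over all 538 genes of that state and filter 41.1% were lower, but the list genes were not matched to them by level. Among all kept genes of that state, 67% were lower at a mean of 3 to 10 RPKM at 4 hpf. At 10 to 30 RPKM 64.6% were lower and at 30 to 100 RPKM 76.7%, so no excess in the lists can be read from these counts. Over all 137 list genes under RPKM 1 at 2 hpf, kept or not, the median was -0.58. Of the 74 detected at 2 hpf 9 were lower and 3 higher, with a median of -0.08. All 3 higher genes, msgn1, etv5a and sox19b, were in the detected group. Counts by list are given for kept members under RPKM 1 at 2 hpf, where the share lower over all such genes was 39%. In the dorsal organizer list 3 of 7 such members were lower, in the Nodal list 1 of 4 and in the Fgf list 1 of 3. These small counts were near that share. In the BMP and ventral list 4 of 4 were lower, and in the early zygotic list 20 of 26. Kept early zygotic genes had a median of 78 RPKM in controls at 4 hpf, and 76.7% of such genes at a mean of 30 to 100 RPKM were lower. Whether the lists differ from other genes of their level was not tested.

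The activators of the embryonic genome were present in mutants. nanog was at 806 RPKM in mutants and 1126 RPKM in controls (-0.48), and pou5f3 at 296 RPKM in mutants and 405 RPKM in controls (-0.45). Of 11 matched activator genes 1 was lower, the embryonic sox19a, and 1 higher, the maternal sox19b, with a median of -0.33 over all 11. In mutants nanog was thus at 71.6% of the control level and pou5f3 at 73.1%, and protein was not measured.

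Of the 31 maternal egg RNAs matched 0 were lower and 2 higher (median 0.17). The mutant value was below the control value in 11 of the 31, with -0.84 as the lowest difference, and above it in the others. sh2d5 was at 44.3 RPKM in mutants and 14.6 RPKM in controls (1.54), after 129 RPKM in mutants and 168 RPKM in controls at 2 hpf. buc2l was at 75 RPKM in mutants and 31.5 RPKM in controls (1.23), after 94.9 RPKM in mutants and 132 RPKM in controls at 2 hpf. Both were thus slightly below the control value at 2 hpf and above it at 4 hpf. buc, the organizer of germ plasm, was at 246 RPKM in mutants and 138 RPKM in controls (0.84). The zona pellucida genes, expressed in the ovary, were near control, with zp3b at 50.9 RPKM in mutants and 56.3 RPKM in controls (-0.14).

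Germ plasm RNAs, inherited by the germ line, had 0 lower and 1 higher of 16 matched (median 0.25). The higher member was TDRD6, a Tudor domain gene, at 16 RPKM in mutants and 5.34 RPKM in controls (1.42). Its relative TDRD1 was at 31.8 RPKM in mutants and 15.5 RPKM in controls (0.99). Of the members chosen to define the list, buc was above the control value, as given above, and the others were near control. DDX4, which encodes Vasa, was at 129 RPKM in mutants and 106 RPKM in controls. NANOS3 was at 29.4 RPKM in mutants and 35.0 RPKM in controls, and DAZL at 20.2 RPKM in mutants and 20.5 RPKM in controls. For DAZL the values at 2 hpf had been 39.0 RPKM in mutants and 103 RPKM in controls.

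The machinery of RNA decay differed little. Of 42 matched genes of decay and deadenylation 1 was lower and 2 higher (median over all 42, -0.07). BTG4, an adaptor for deadenylation of maternal RNA, was at 262 RPKM in mutants and 200 RPKM in controls (0.38). CNOT7, a catalytic deadenylase subunit gene, was at 15.9 RPKM in mutants and 6.28 RPKM in controls (1.21), and its paralog CNOT8 was at 249 RPKM in mutants and 281 RPKM in controls (-0.17). The minor poly(A)-binding protein gene pabpc1b was at 20.6 RPKM in mutants and 6.66 RPKM in controls (1.5), against 379 RPKM in mutants and 408 RPKM in controls for pabpc1a. Of 34 RNA-binding protein genes 2 were lower and 0 higher. hnrnpa0a, which increases strongly in controls by 6 hpf, was at 19.9 RPKM in mutants and 60.6 RPKM in controls (-1.56). The abundant YBX1, a maternal RNA packaging protein gene, was at 529 RPKM in mutants and 681 RPKM in controls (-0.36).

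Genes of translation separated by complex. Initiation factors centred on control, with 2 lower and 2 higher of 55 matched (median -0.06). EIF5 was at 38.3 RPKM in mutants and 80.1 RPKM in controls (-1.04), and EIF3E at 5.24 RPKM in mutants and 14.7 RPKM in controls (-1.33). Both were already lower at 2 hpf. EIF2B3, a subunit of the eIF2 exchange factor, was at 17.8 RPKM in mutants and 7.09 RPKM in controls (1.22). Cytosolic ribosomal protein genes were nearly all above control, though mostly by less than 1 log2: 4 of 66 were higher and 1 lower, 3 of the 65 kept were below the control value, and the median over all 66 was 0.48. RPS2 was at 262 RPKM in mutants and 107 RPKM in controls (1.29), after 227 RPKM in mutants and 61.7 RPKM in controls at 2 hpf. RPL12 was the exception, at 279 RPKM in mutants and 568 RPKM in controls (-1.02), after 274 RPKM in mutants and 572 RPKM in controls at 2 hpf. The summed RPKM of the list was 16952 in mutants and 12696 in controls.

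Mitochondrial genes also leaned upward. All 13 genes encoded in the mitochondrial genome were above the control value, with differences from 0.34 to 0.99, a median of 0.54, and 0 past the threshold. MT-CO1, a cytochrome oxidase subunit gene and the most abundant, was at 13831 RPKM in mutants and 9262 RPKM in controls. Nuclear respiratory chain subunits had 5 higher and 1 lower of 80 matched (median over all 80, 0.32). Mitochondrial ribosomal proteins had 3 higher and 0 lower of 65 (median 0.32). Over all kept genes 4.33% were higher, so the upward lean of these lists lay mainly in the medians, not in the counts. atp5if1a, which encodes an inhibitor of the ATP synthase, was at 281 RPKM in mutants and 55.2 RPKM in controls (2.33), after 296 RPKM in mutants and 33.2 RPKM in controls at 2 hpf. MRPS12 was at 17.1 RPKM in mutants and 2.33 RPKM in controls (2.44), after 15.9 RPKM in mutants and 4.44 RPKM in controls at 2 hpf. RPKM is a share of each library, so a higher share here lowers the others. Trimmed-mean rescaling, which centres the middle log ratios of genes above 0 RPKM in both genotypes, changed the scale by 0.00 log2. It takes most genes as unchanged and weighs weak genes like strong ones. Whether shares of the library contribute to these medians was therefore not tested.

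The transcription apparatus was near control. Of 62 general factor and Mediator genes 0 were lower and 3 higher (median 0.04). The higher ones included TBPL2, an egg-expressed relative of the TATA-binding protein, at 9.02 RPKM in mutants and 2.93 RPKM in controls (1.35). Of 26 RNA polymerase subunit genes 1 was lower, the embryonic polr3gla, and 2 higher. Its maternal counterpart polr3g was at 5.11 RPKM in mutants and 2.12 RPKM in controls (0.97). Zinc finger genes of the znf series were split by their state at 2 hpf much as all genes were. Of those with at least 1 RPKM at 4 hpf in both genotypes, 7 of 15 that were under RPKM 1 at 2 hpf were lower (46.7%), against 2 of 102 detected at 2 hpf (1.96%). Over all genes with this filter, 41.1% of those under RPKM 1 at 2 hpf were lower. Of all those detected and within 1 log2 at 2 hpf, 1.37% were lower. Over all 54 znf genes under RPKM 1 at 2 hpf, kept or not, 11 were lower and the median was -0.30. znf1127 was at 8.37 RPKM in mutants and 66.7 RPKM in controls (-2.85), and znf1089 at 62.2 RPKM in mutants and 136 RPKM in controls (-1.11). Such znf genes have many close copies, so their counts may share reads.

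Splicing, proteasome, nuclear pore and chromatin lists each had a median within 0.21 of 0 and at most 1 gene past the threshold in each direction. PRPF3, a tri-snRNP component gene, was at 31.8 RPKM in mutants and 8.88 RPKM in controls (1.73), after 28.2 RPKM in mutants and 8.98 RPKM in controls at 2 hpf. srsf5a, a splicing regulator gene, was at 93.9 RPKM in mutants and 215 RPKM in controls (-1.18), after 25.2 RPKM in mutants and 28.2 RPKM in controls at 2 hpf. DNMT3B, a DNA methyltransferase gene, was at 12.7 RPKM in mutants and 28.4 RPKM in controls (-1.10), after 13.1 RPKM in mutants and 26.7 RPKM in controls at 2 hpf. Thus srsf5a was near the control level at 2 hpf, while PRPF3 and DNMT3B already differed then.

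Cell cycle and replication genes had few differences. Of 27 cyclins and mitotic kinases 2 were lower and 0 higher (median over all 27, -0.28). WEE1, the kinase gene that restrains entry into mitosis, was at 8.64 RPKM in mutants and 22 RPKM in controls (-1.25), and cdkn1ca, a Cdk inhibitor gene, at 6.62 RPKM in mutants and 20.3 RPKM in controls (-1.48). The maternal cyclin gene CCNB1 was at 290 RPKM in mutants and 461 RPKM in controls (-0.67). Of 40 replication genes 2 were lower and 1 higher, and RRM2B, a ribonucleotide reductase subunit gene, was at 10.3 RPKM in mutants and 35.0 RPKM in controls (-1.67).

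The 2 stress lists had medians within 0.20 of 0 over matched genes. Of 28 p53 targets and cell death genes 2 were lower and 4 higher (median over all 28, -0.02). The 4 higher ones, out of 27 kept, are a larger share than the 4.33% of all kept genes, though on a small count. The 2 lower ones were under RPKM 1 at 2 hpf in both genotypes, with PHLDA3 at 1.60 RPKM in mutants and 11 RPKM in controls (-2.21) and bbc3, which encodes Puma, at 2.19 RPKM in mutants and 6.28 RPKM in controls (-1.19). The higher ones were detected at 2 hpf, among them MDM4, a p53 inhibitor gene, at 53.6 RPKM in mutants and 21.6 RPKM in controls (1.27). Of 28 heat shock and unfolded protein genes 1 was lower and 0 higher. That gene, the small heat shock gene HSPB1, was at 23.9 RPKM in mutants and 102 RPKM in controls (-2.05). At 2 hpf it had been at 3.72 RPKM in mutants and 0.241 RPKM in controls.

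Metabolic and interferon lists each held at most 2 lower and 1 higher genes. apoc1, an apolipoprotein gene, was at 0.833 RPKM in mutants and 6.57 RPKM in controls (-2.05). isg15, known as an interferon-stimulated gene but expressed here with no treatment named, was at 33.5 RPKM in mutants and 82.4 RPKM in controls (-1.27). irf1a, an interferon regulatory factor gene, was at 10.5 RPKM in mutants and 4.39 RPKM in controls.

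Among genes with at least 5 RPKM in either genotype and a proper symbol, the 15 lowest were of 2 kinds. Beside ddx3xb, 7 were already lower at 2 hpf: SSR3, SMIM13, ZRANB1, SPAG9, urahb, SFRP1 and POGLUT3. SSR3, a subunit gene of the translocon-associated complex, was at 1.74 RPKM in mutants and 32.0 RPKM in controls (-3.59), and at 0.113 RPKM in mutants and 33.1 RPKM in controls at 2 hpf. SMIM13 was at 3.28 RPKM in mutants and 48.2 RPKM in controls (-3.52). The other 7, stm, polr3gla, krt4, pth1b, bmp7a, SLC7A8 and mxtx1, were under RPKM 1 in both genotypes at 2 hpf. pth1b, a parathyroid hormone gene, was listed at 0 in mutants and at 6.81 RPKM in controls. SLC7A8, an amino acid transporter gene, was at 0.247 RPKM in mutants and 8.24 RPKM in controls (-2.89), and at 196 RPKM in mutants and 309 RPKM in controls at 6 hpf. ZRANB1 stands on 2 IDs, which may share reads.

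The 15 highest such genes were all already higher at 2 hpf, and 11 of the 15 were still higher at 6 hpf. GNB3, which encodes a G protein beta subunit, was at 10.6 RPKM in mutants and 0.380 RPKM in controls (3.07), and at 10.7 RPKM in mutants and 0.121 RPKM in controls at 2 hpf. pdx1, the pancreatic homeobox gene, was at 34.7 RPKM in mutants and 3.95 RPKM in controls (2.85). TNNT2, a cardiac troponin gene, was at 5.85 RPKM in mutants and 0.331 RPKM in controls (2.36). The other markers of their tissues stayed low: the next highest of pancreas, liver and gut was HNF4A, at 0.109 RPKM in mutants and 1.16 RPKM in controls, and the next of muscle and heart ACTA1, at 0.303 RPKM in mutants and 0.335 RPKM in controls. MYOD1, ACTC1 and ins were listed at 0 in mutants. RRM2, first in rank, rests on 1 of 2 IDs, at 333 RPKM in mutants and 20.7 RPKM in controls. The other ID was at 282 RPKM in mutants and 715 RPKM in controls, and their sum was at 615 RPKM in mutants and 736 RPKM in controls (-0.26).

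Genes near the mutated locus were examined because a mutant line can carry a stretch of chromosome from its founder. By the gene order of another assembly, GRCz12tu, 1 of the 50 nearest kept genes was past 1 log2 in either direction (2%). Along the whole chromosome of ddx3xb, without ddx3xb itself, 23 of 380 were (6.05%), against 715 of 8281 on the other chromosomes (8.63%). Only genes with a matching symbol took part, 8662 of the kept genes, and 8.53% of these were past the threshold. Over all 14932 kept genes 88.5% lay within it, so the genes left out were past it more often. Whether a linked stretch of chromosome contributes to the differences was not tested.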

How the data were processed

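The labels describe whole zebrafish embryos of 2 genotypes at 2, 4 and 6 hpf, 2 samples each, called biological replicates in the series text; messenger RNA was purified on beads and sequenced from stranded libraries, per the labels' protocols. Per the submitters' processing notes, the build was Zv9 and the tools named are HISAT2 2.0.5, SAMtools 1.9, Trimmomatic 0.36 and cutadapt 1.13, with the counting tool not given in the sources used here. RPKM values were deposited by the authors, 6 tables with 1 value per gene and group. The planned linear model needs values per library, so differences were described by size only. Genes with an RPKM of at least 1 in either table at 4 hpf were kept and compared as log2(RPKM + 1), with pandas 2.3.3 and NumPy 2.4.6 under Python 3.11.15. Library depths were solved from the steps of low values, up to a common whole factor. The solver was run on simulated data built from the same starting steps, so those steps were not checked. The counts were run on values moved by known amounts, which checks the counting only. Symbols came from a names table for 21939 of 33737 IDs and are spelled as there. A symbol on more than 1 ID was represented in lists by its most abundant ID. Named were ddx3xb and ddx3xa, the 15 lowest and 15 highest genes with at least 5 RPKM, list members past 1 log2 and defining list members, and the extreme members of the newly made class; a few near-control members, the comparisons of paralogs and the genes of the time course plot were chosen for contrast after their values were seen. The members and the 44 lists were chosen with earlier results of these data known. Alternatives changed the scaling, pseudocount, filter, threshold and class rules. Promoter motifs were not analysed here.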

Additional observations from a re-analysis of the deposited data

How the results depend on the processing

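The counts depended on pseudocount, filter and threshold more than on scaling. With trimmed-mean rescaling, quantile normalization or median centring the lower genes numbered 1075, 1023 and 1163 and the higher 650, 661 and 576. A pseudocount of 0.1 gave 1673 lower and 1194 higher genes, with 874 of the lower and 97 of the higher under RPKM 1 at 2 hpf; a pseudocount of 0.5 gave 52 of the last. A filter of 5 RPKM gave 568 lower genes, 176 newly made ones lower, and 233 lower and 5 higher genes under RPKM 1 at 2 hpf. A threshold of 2 log2 gave 174 lower and 49 higher genes, 61 newly made ones lower and 0 higher, 15 falling maternal ones lower and 6 higher, and 96 lower and 2 higher genes under RPKM 1 at 2 hpf. Counting only genes with at least 1 RPKM in both genotypes, an alternative chosen after seeing the data, gave 563 lower genes, 172 newly made ones lower, and 221 lower and 4 higher genes under RPKM 1 at 2 hpf. Requiring under RPKM 0.2 at 2 hpf gave 211 newly made genes lower. Classes from the mutant tables gave 269 newly made genes lower and 5 higher, with a median of -1.09, and 0 maternal ones lower.

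List medians with at least 5 kept genes (39 lists) stayed within 0.58 log2, a 1.5-fold change, in 341 of 346 alternative values. That tolerance is wide for small medians: 13 of the 341, in 6 lists, moved by more than 0.3. With no filter the enveloping layer median of -1.45 became -0.93, the endoderm one of -1.21 became -0.63 and the Fgf one of -0.57 became -0.09. The yolk syncytial layer median, -1.15 over its kept members, was -2.07 with a pseudocount of 0.1, -2.04 with the filter of 5 RPKM, -0.49 with no filter and -0.56 with a filter over all 6 tables. The neuroectoderm median, -0.93 over kept members, was -0.14 with no filter. The sign changed 5 times, in 4 lists whose medians were within 0.08 of 0. For the 30 lowest and highest named genes, 5 scalings and pseudocounts gave 150 values, of which 133 were within the same tolerance, 17 moved further and 0 changed direction. Fewer genes enter under the stricter filters and weak genes weigh more with smaller pseudocounts; beyond that the cause was not tested. No paired analysis was possible because each group has a single deposited value, and leaving out a replicate could not be run for the same reason. The promoter motifs planned were not run. Replicate error is unknown here, so single genes of low RPKM are the least certain.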
